A study of Homo sapiens with 6 samples.

Results

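The G2 and mitosis genes described here are 32 genes that carry cells from the end of DNA replication through division: cyclins and CDK1, mitotic kinases, the spindle checkpoint, the centromere and kinetochore, and proteins of the spindle and of cytokinesis. They were taken by symbol from a deposited table of 23368 genes, and motor genes of the kinesin family were kept out of the list apart from CENPE. All 32 were in the table and all 32 passed the filter on low counts, among 11097 genes tested. RNA came from H2122, an established line of human lung adenocarcinoma, and was sequenced at 48 hours in 3 libraries of cells given a control shRNA and in 3 of cells given an shRNA to LYCAT. LYCAT is now called LCLAT1. Every library comes from this 1 line and from cells transfected with an shRNA, so by the labels the groups differ in the target of the shRNA alone. Whether libraries of 1 group were separate cultures is not stated, and the p-values therefore cover the spread among these libraries, part of which may be technical.

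In a dividing cell, cyclin A and then cyclin B switch on CDK1, which drives entry into mitosis together with the Polo and Aurora kinases. Kinetochores assemble on centromeres and attach chromosomes to spindle microtubules, and the spindle checkpoint holds back the anaphase-promoting complex (APC/C) until all are attached. APC/C with CDC20 then marks securin and cyclin B for destruction, sister chromatids part, and the cell divides across the spindle midzone. Many of these genes are transcribed late in the cycle, under B-MYB, FOXM1 and the MuvB proteins, which act through a promoter element called CHR. Another element known from cell cycle promoters is CCAAT. In RNA from a whole culture, fewer cells in G2 or mitosis and less RNA per such cell cannot be told apart.

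Library totals were 3118946 to 4930079 counts, and a member had 115 to 6454 counts in a library. LCLAT1, the target of the shRNA, had 265 to 302 counts in the controls and 70 to 101 with LYCAT shRNA, or 35.5% of its control mean (log2 fold change -1.50, edgeR quasi-likelihood adjusted p = 1.15e-18). All 8 epithelial markers checked had counts, with 1962 to 3096 for EPCAM in a library. Of the 7 tested, 4 fell (57.1%, against 9.26% of all tested genes), and all 7 had a negative log2 fold change. The 8 summed to 1989 to 2086 counts per 1000000 of the library total (CPM) in the controls and to 1792 to 1837 CPM with LYCAT shRNA. By contrast, the endothelial markers PECAM1, CDH5 and CLDN5 (3 of 6) and the blood markers PTPRC, CD3E, LYZ and MS4A1 (4 of 9) had 0 in all 6 libraries. The others of both lists had counts in some library, with 14 to 21 for CD68 and 1 to 7 for TEK in each. In a library, the 6 endothelial markers summed to 0.321 to 3.25 CPM and the 9 blood markers to 3.44 to 5.77 CPM. The 9 fibroblast markers, collagens among them, summed to 92.8, 135 and 32.1 CPM in control libraries 1 to 3 and to 19.6 to 38.5 CPM with LYCAT shRNA. None of the 9 was at 0 in all libraries, and control libraries 1 and 2 stood above the other 4. Their part in the results was not tested, and the main counts are given with and without each of those libraries.

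With LYCAT shRNA, 11 of the 32 genes (34.4%) fell and 2 (6.25%) rose, and the other 19 did not pass. Passing means an adjusted p under 0.05 in edgeR's quasi-likelihood test, adjusted over all tested genes. Among all tested genes 9.26% fell and 9.81% rose. Among the 4881 genes with a control mean of at least 39.2 CPM, the lowest of any member, 12.9% fell and 13.1% rose. The genes that fell were CENPE, NUF2, NDC80, TTK, CDC25C, HMMR, TOP2A, AURKB, AURKA, NUSAP1 and PRC1, and those that rose were CCNB1 and PTTG1. Most changes were of modest size, since CENPE moved by more than 1.5-fold and the other 12 of the 13 by less. The median log2 fold change of the 32 genes was -0.08, against -0.01 for all tested genes. The libraries of the groups did not overlap, with LYCAT shRNA lower, for 13 of the 32 genes (40.6%) and for 16.2% of all tested genes, and with LYCAT shRNA higher for 2 of the 32 (6.25%) and 16.6% of all.

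Those counts depended on single libraries. Without control library 3, 7 genes fell and 2 rose (7.33% and 7.93% of all tested genes), since AURKA, AURKB, CDC25C and PRC1 no longer passed. Without control library 1, 9 fell and 0 rose in edgeR (6.82% and 7.55% of all), with 1 gene higher at an unadjusted p under 0.05. Without control library 2, 13 fell and 3 rose (9.82% and 10.1% of all). The median was then -0.15, and control library 2 held the lowest of the 3 control values for 19 of the 32 genes. Without control libraries 1 and 2 together, 10 fell and 1 rose, against 4.89% and 5.04% of all tested genes, and the median was -0.16. Without LYCAT shRNA library 1, 8 fell and 1 rose (6.29% and 6.61% of all tested genes). Without LYCAT shRNA library 2 these were 11 and 1 (7.08% and 7.64% of all), and without LYCAT shRNA library 3 they were 8 and 2 (6.18% and 6.75% of all). DESeq2, another count test, called 10 genes lower and 1 higher, against 5.03% and 5.72% of all. CENPE, NUF2, NDC80, TTK and TOP2A passed as lower in each of the 17 alternative analyses that were run.

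**Figure D1:**
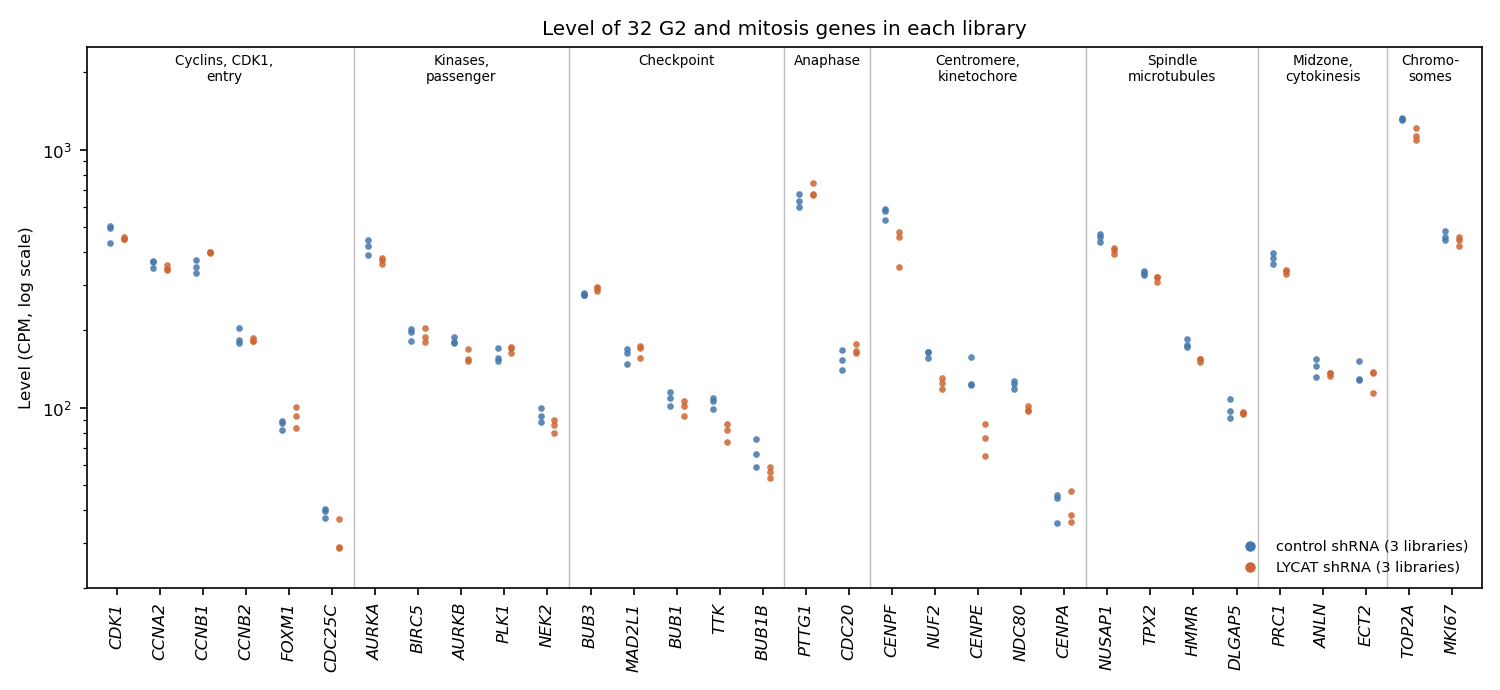
Level of each of the 32 genes in each library, in CPM on a log scale, grouped by role, with 3 control shRNA libraries (blue) and 3 LYCAT shRNA libraries (orange) per gene. CENPE, NUF2, NDC80 and TTK have every LYCAT shRNA library below every control library, and for most genes of the cyclin group the points overlap.

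Many promoters of these genes hold the same short sequence elements, and 5 are printed here to show them in genes that fell, rose or did not pass. RefSeq promoters (GRCh38.p14, from 250 bases before to 50 after the start site) were matched by symbol for 26 of the 32 genes, all but AURKA, BUB3, TTK, BIRC5, TPX2 and FOXM1. On either strand, 19 of the 26 (73.1%) held the CHR letters TTTGAA or TTCGAA, against 16.6% of all 27305 promoters of that length. CCAAT, on either strand, was in 20 of the 26 (76.9%) and in 35.7% of all. Each stretch below holds the 120 bases before the start site, on the gene's own strand, with every match in capitals (ATTGG is CCAAT read on the other strand, and matches that touch or overlap run together). The first 2 genes fell, the third did not pass, and the last 2 rose.
PRC1, chr15:90994536-90994655, minus strand: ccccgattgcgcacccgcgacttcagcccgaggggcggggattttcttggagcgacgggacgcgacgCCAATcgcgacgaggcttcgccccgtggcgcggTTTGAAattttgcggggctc
HMMR, chr5:163460512-163460631, plus strand: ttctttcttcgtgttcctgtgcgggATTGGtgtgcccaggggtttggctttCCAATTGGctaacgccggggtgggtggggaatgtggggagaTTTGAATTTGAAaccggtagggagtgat
PLK1, chr16:23678769-23678888, plus strand: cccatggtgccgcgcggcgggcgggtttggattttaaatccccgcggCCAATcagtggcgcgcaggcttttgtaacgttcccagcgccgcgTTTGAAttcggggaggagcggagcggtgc
CCNB1, chr5:69167030-69167149, plus strand: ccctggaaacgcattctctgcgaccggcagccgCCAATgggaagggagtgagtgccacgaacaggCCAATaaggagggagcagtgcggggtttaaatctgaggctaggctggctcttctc
PTTG1, chr5:160421735-160421854, plus strand: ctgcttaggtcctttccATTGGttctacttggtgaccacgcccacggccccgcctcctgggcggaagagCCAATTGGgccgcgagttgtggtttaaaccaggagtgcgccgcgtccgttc

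PRC1, HMMR and PLK1 have CHR letters close to the start site, while CCNB1 and PTTG1 have CCAAT alone in these letters. Over the whole windows, CHR letters were in 6 of the 9 matched promoters of genes that fell, in 0 of the 2 of genes that rose and in 13 of the 15 of genes that did not pass. CENPE, CDC25C and AURKB fell and had no CHR letters in the window, and CENPE and CDC25C had no CCAAT either. These are matches of letters in a fixed window, with no measurement of binding. Only TTTGAA and TTCGAA were searched for CHR, at a single start site per gene. A CHR element of other letters or at another start site would be missed, so a gene without a match may still have one.

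Of the 6 genes for cyclins, CDK1 and entry into mitosis, 1 fell, 1 rose (16.7% each) and 4 did not pass. Among all tested genes 9.26% fell and 9.81% rose, and each role holds too few genes for its share to say much. Their summed level was 1509 ± 47.7 CPM in the controls and 1509.5 ± 9.36 CPM with LYCAT shRNA (SD, n = 3 each). That sum joins moves in both directions, since 4 of the 6 had a negative log2 fold change and 2 a positive one. CCNB1, cyclin B1, stood at 334, 374 and 352 CPM in the controls and at 400.2, 402 and 399 CPM with LYCAT shRNA. The 3 LYCAT shRNA libraries were nearly level and all above the controls. It rose 1.13-fold (log2 0.18, SE 0.0509, edgeR adjusted p = 0.00694), and without control library 1, the lowest, it did not pass (log2 0.14, edgeR adjusted p = 0.0693). CDC25C, a phosphatase that activates CDK1, stood at 39.7, 37.5 and 40.4 CPM in the controls, against 28.5, 37.1 and 28.7 CPM with LYCAT shRNA. LYCAT shRNA library 2 lay just under the controls and the other two well below. It fell 1.26-fold (log2 -0.34, SE 0.116, edgeR adjusted p = 0.0292), on at least 115 counts in a library, the lowest of any member. That call was lost without control library 1 or 3, without LYCAT shRNA library 1 or 3, without control libraries 1 and 2 together and with DESeq2 (adjusted p = 0.0806 to 0.186).

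CDK1 itself, the kinase that the cyclins activate, stood at 499, 434 and 508 CPM in the controls and at 458, 452 and 452 CPM with LYCAT shRNA. Control library 2 was below all 3 LYCAT shRNA libraries and the other 2 controls above them. The log2 fold change was -0.08 (95% interval -0.18 to 0.02), and without control library 2 it was -0.15 and passed (edgeR adjusted p = 0.00949). The CPM of CCNB1 divided by that of CDK1 was 0.670, 0.861 and 0.693 in the controls and 0.875, 0.890 and 0.883 with LYCAT shRNA, so the groups did not overlap, though control library 2 was close to them. CCNB1 alone did not overlap either, so the ratio is no separate evidence. The same ratios for CCNB2 and CCNA2, the other mitotic cyclins, overlapped between the groups. CCNA2 had a log2 fold change of -0.05 (95% interval -0.15 to 0.05), CCNB2 of -0.04 (-0.16 to 0.08). FOXM1, a transcription factor of late cell cycle genes, stood at 87.0, 89.2 and 82.3 CPM in the controls and at 92.9, 83.2 and 100.4 CPM with LYCAT shRNA. Its groups overlapped (log2 0.10, 95% interval -0.05 to 0.26).

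Among the mitotic kinases and BIRC5, 2 of 5 fell (40.0%, against 9.26% of all tested genes) and 3 did not pass. AURKA, the Aurora kinase of spindle poles, stood at 390, 422 and 448 CPM in the controls and at 360, 375 and 379 CPM with LYCAT shRNA. The groups did not overlap, and the fall was 1.13-fold (log2 -0.18, SE 0.0514, edgeR adjusted p = 0.00847). AURKB, the Aurora kinase of the chromosomal passenger complex, stood at 179, 180 and 188 CPM in the controls, against 169, 155 and 152 CPM with LYCAT shRNA. It fell 1.15-fold (log2 -0.20, SE 0.0624, edgeR adjusted p = 0.0181), again with no overlap. AURKA did not pass without control library 3 or LYCAT shRNA library 1 (edgeR adjusted p = 0.126 and 0.105), nor AURKB without control library 3, LYCAT shRNA library 2 or LYCAT shRNA library 3 (0.0847 to 0.132) or with DESeq2 (adjusted p = 0.0751).

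BIRC5, or survivin, is a partner of AURKB in the passenger complex. It stood at 197, 182 and 201 CPM in the controls and at 188, 203 and 179 CPM with LYCAT shRNA, and the groups overlapped (log2 -0.03, 95% interval -0.15 to 0.09). The CPM of AURKB divided by that of BIRC5 was 0.907, 0.990 and 0.935 in the controls and 0.898, 0.761 and 0.849 with LYCAT shRNA, so this ratio did not overlap between the groups, though its ends lay close. AURKB alone did not overlap either. Of 9 ratios of partner genes computed, 3 did not overlap, the third being BUB1B to BUB3. Among all tested genes, 32.8% had groups that did not overlap in either direction, and the ratios were not tested. PLK1, the Polo kinase, had values of 151, 170 and 156 CPM in the controls and of 163, 170 and 172 CPM (log2 0.08, 95% interval -0.05 to 0.20). Its groups overlapped. NEK2, a kinase that separates centrosomes, stood at 92.6, 87.8 and 99.7 CPM in the controls, against 79.5, 85.8 and 89.4 CPM with LYCAT shRNA, with 1 LYCAT shRNA library above the lowest control (log2 -0.14, 95% interval -0.29 to 0.02).

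In the spindle checkpoint, TTK fell and 4 of 5 genes did not pass. TTK, or MPS1, is the kinase that starts checkpoint signalling at kinetochores. Its level was 109, 98.5 and 106 CPM in the controls and 86.3, 73.9 and 82.0 CPM with LYCAT shRNA, so the groups were well apart. It fell 1.28-fold (log2 -0.36, SE 0.0777, edgeR adjusted p = 0.000274), and it passed in each of the 17 alternatives (log2 -0.41 to -0.31).

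The BUB and MAD genes did not share one direction. BUB1B, the checkpoint protein BubR1, stood at 75.9, 59.0 and 66.0 CPM in the controls and at 56.6, 53.5 and 59.1 CPM with LYCAT shRNA. The groups met at control library 2, and the gene missed the threshold (log2 -0.24, edgeR adjusted p = 0.0573), passing without that library (0.00617), scaled by library totals only (0.0441) and with a replicate block (0.0463). BUB3, the protein that carries BUB1 and BUB1B to kinetochores, stood at 278, 272 and 274 CPM in the controls, against 290, 293 and 284 CPM with LYCAT shRNA. Every LYCAT shRNA library was above every control, yet the difference was small and did not pass (log2 0.07, 95% interval -0.03 to 0.18). MAD2L1, which binds and holds CDC20, had a log2 fold change of 0.06 (-0.06 to 0.19) and the kinase gene BUB1 of -0.11 (-0.25 to 0.04).

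Of PTTG1 and CDC20, which act at the start of anaphase, 1 rose and 1 did not pass, where 9.81% of all tested genes rose. PTTG1, or securin, is the inhibitor of separase that APC/C destroys. It stood at 601, 630 and 671 CPM in the controls and at 675, 741 and 669 CPM with LYCAT shRNA. The highest control lay between LYCAT shRNA libraries 1 and 3, so the groups overlapped. It rose 1.10-fold (log2 0.13, SE 0.0476, edgeR adjusted p = 0.0418), close to the threshold. That call was lost without control library 1, LYCAT shRNA library 1 or LYCAT shRNA library 2, with DESeq2, limma-voom, unscaled library totals, robust=FALSE or offsets for GC content and length, and without control libraries 1 and 2 together (adjusted p = 0.0537 to 0.655). CDC20, the activator of APC/C, had values of 140, 167 and 153 CPM in the controls and of 176, 165 and 162 CPM. The groups overlapped through control library 2, and it did not pass (log2 0.13, edgeR adjusted p = 0.156), but did without that library (log2 0.20, edgeR adjusted p = 0.0171).

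The centromere and kinetochore genes held the 2 largest falls among the genes that passed, CENPE and NUF2. Of 5 genes 3 fell, all 5 had a negative log2 fold change, and their median was -0.38. Summed over the 5, the level was 1028 ± 41.6 CPM in the controls and 770.4 ± 85.2 CPM with LYCAT shRNA, 74.9% of the control mean (SD, n = 3 each). The largest part of that sum was CENPF, which did not pass, with means of 568 CPM in the controls and 430 CPM with LYCAT shRNA. Single LYCAT shRNA libraries stood at 807, 831 and 673 CPM, all below the lowest control at 983 CPM, with library 3 the lowest. Among the 8 roles this was the lowest percentage, and anaphase had the highest, at 109.6%. Roles were not tested against each other.

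CENPE, a large kinetochore motor of the kinesin family that moves chromosomes to the spindle equator, stood at 122, 158 and 123 CPM in the controls and at 86.8, 76.1 and 64.9 CPM with LYCAT shRNA. All 3 LYCAT shRNA libraries were far below the controls, though each group had a wide spread. It fell 1.77-fold (log2 -0.83, SE 0.110, edgeR adjusted p = 3.66e-05), and 1.92% of tested genes had a log2 fold change at or below that. Without control library 2, its highest, it was -0.69 and still passed (edgeR adjusted p = 1.1e-11).

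CENPF, a large protein of the outer kinetochore, had values of 534, 591 and 577 CPM in the controls and of 460, 480 and 351 CPM. The groups did not overlap, but LYCAT shRNA library 3 lay far below the other two, and the gene did not pass (log2 -0.40, SE 0.132, edgeR adjusted p = 0.114). Without LYCAT shRNA library 3 the log2 fold change was -0.27 and passed (edgeR adjusted p = 0.000405). Without LYCAT shRNA library 2 it was -0.48 and passed too (0.00932), and CENPF passed in 9 of the 17 alternatives, among them DESeq2 (0.0435) and limma-voom (1.4e-05).

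NUF2 and NDC80 pair in the Ndc80 complex, which grips microtubule ends at the kinetochore. NUF2 stood at 164, 155 and 165 CPM in the controls and at 125, 130 and 119 CPM with LYCAT shRNA, and NDC80 at 118, 123 and 127 CPM, against 96.8, 98.0 and 102 CPM. Neither gene's groups overlapped. NUF2 fell 1.30-fold (log2 -0.38, SE 0.0657, edgeR adjusted p = 6.87e-06) and NDC80 1.24-fold (log2 -0.31, SE 0.0713, edgeR adjusted p = 0.000708). Both passed in each of the 17 alternatives. Their ratio overlapped between the groups, at 1.32 ± 0.0687 in the controls and 1.26 ± 0.0847 with LYCAT shRNA (SD, n = 3 each). CENPA, the histone H3 variant that marks centromeres, did not follow them, with 44.6, 35.9 and 45.8 CPM and 38.5, 47.4 and 36.2 CPM (log2 -0.06, 95% interval -0.28 to 0.16).

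**Figure D2:**
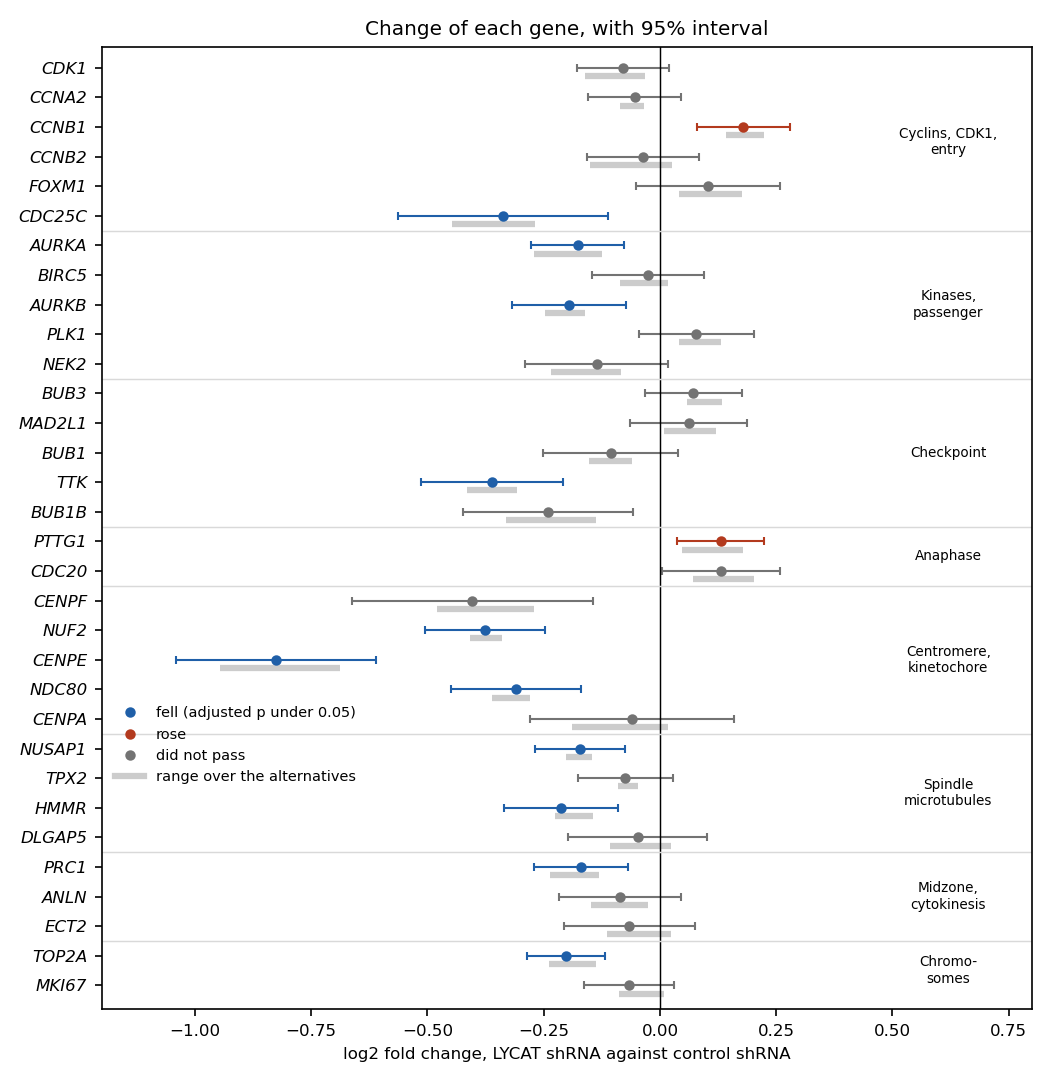
Log2 fold change of each gene in LYCAT shRNA against control shRNA, with its approximate 95% interval. Intervals are 1.96 standard errors either way by the normal distribution, not adjusted over genes, and are too narrow for CENPF. A grey bar gives the lowest and highest value over the 17 alternatives. CENPE lies lowest at -0.83 and CCNB1 highest at 0.18, and the interval of most cyclin and checkpoint genes crosses 0.

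Of 4 genes of spindle microtubules, 2 fell and 2 did not pass. NUSAP1, which bundles microtubules near chromosomes, stood at 437, 473 and 460 CPM in the controls and at 393, 416 and 408 CPM with LYCAT shRNA, with no overlap. It fell 1.13-fold (log2 -0.17, SE 0.0494, edgeR adjusted p = 0.00741), but did not pass without LYCAT shRNA library 1 (edgeR adjusted p = 0.0953). HMMR, a hyaluronan receptor that also binds the spindle, stood at 184, 175 and 173 CPM in the controls, against 155, 155 and 150 CPM with LYCAT shRNA, again with no overlap.

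HMMR fell 1.16-fold (log2 -0.21, SE 0.0623, edgeR adjusted p = 0.00916). It did not pass without control library 1 or LYCAT shRNA library 3 (edgeR adjusted p = 0.0577 and 0.0617), without control libraries 1 and 2 together (0.169) or with offsets for GC content and length (0.104). TPX2, the spindle factor that activates AURKA, had values of 340, 326 and 333 CPM in the controls and of 322, 321 and 306 CPM with LYCAT shRNA. Its groups did not overlap, but they lay close and it did not pass (log2 -0.07, 95% interval -0.18 to 0.03). DLGAP5, which stabilises spindle fibres near kinetochores, had a log2 fold change of -0.05 (-0.20 to 0.10).

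Of 3 midzone and cytokinesis genes, 1 fell (33.3%, against 9.26% of all tested genes) and 2 did not pass. The gene that fell was PRC1, which cross-links microtubules in the midzone and has the promoter shown first above. It stood at 380, 361 and 398 CPM in the controls and at 342, 339 and 331 CPM with LYCAT shRNA, with no overlap. The fall was 1.12-fold (log2 -0.17, SE 0.0513, edgeR adjusted p = 0.012), and it did not pass without control library 3 or LYCAT shRNA library 3 (edgeR adjusted p = 0.108 and 0.078). ANLN, a scaffold of the contractile ring, stood at 154, 131 and 145 CPM in the controls, against 136, 136 and 132 CPM with LYCAT shRNA. Its groups overlapped through control library 2 (log2 -0.09, 95% interval -0.22 to 0.05). ECT2, the exchange factor that activates RhoA for cytokinesis, had a log2 fold change of -0.07 (-0.21 to 0.07).

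TOP2A, the topoisomerase that untangles sister chromatids, had the highest CPM of the list, at 1310, 1308 and 1325 in the controls and at 1131, 1209 and 1090 with LYCAT shRNA. The controls were nearly level and all above the LYCAT shRNA libraries. It fell 1.15-fold (log2 -0.20, SE 0.0428, edgeR adjusted p = 0.000223). MKI67, the gene of the proliferation marker Ki-67, which coats mitotic chromosomes, stood at 457, 485 and 448 CPM in the controls, against 446, 460 and 424 CPM with LYCAT shRNA. Its groups overlapped (log2 -0.07, 95% interval -0.16 to 0.03).

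**Figure D3:**
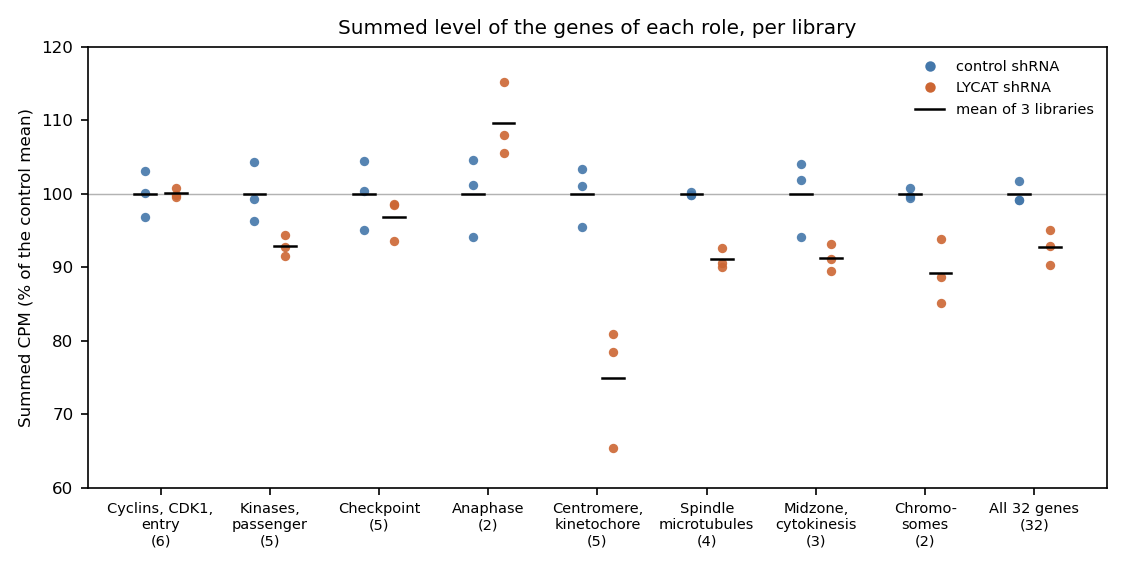
Summed CPM of the genes of each role in each library, as a percentage of the control mean, with the number of genes in brackets and a line at the mean of 3 libraries. The centromere and kinetochore genes are lowest with LYCAT shRNA, at 74.9% of the control, the cyclin group is at 100.1%, and the axis starts at 60%.

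For the 19 genes that did not pass, the precision was enough to bound most changes. Standard errors of the log2 fold change ran from 0.0428 to 0.132 over the 32 genes, with a median of 0.0638. The 95% interval of 17 of the 19 lay within 1.25-fold in either direction. The 2 others were CENPF and BUB1B, described above.

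Transcripts of the 32 genes differ in length and base composition, read from the longest GENCODE v29 transcript of each gene. GC content ran from 35.3% in CENPE to 57.9% in CDC20, with a median of 42.6%. Genes of lower GC content tended to have the lower log2 fold changes, with Pearson's r = 0.46 and Spearman's rho = 0.45 across the 32 genes, which share the same 6 libraries. Over the 10010 tested genes with a matched transcript these were 0.02 and 0.06. Transcript length showed a weaker relation in the list (Pearson's r = -0.26, Spearman's rho = -0.15). With each library's counts corrected for GC content and length, 11 of the 32 fell and 1 rose (7.76% and 11.2% of all tested genes), CENPE was at -0.71 on the log2 scale (edgeR adjusted p = 1.17e-06), and CENPF passed as lower where HMMR and PTTG1 no longer passed. The correction also removes any true difference between the groups that runs along GC content or length.

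Levels of different genes can be compared only per length, here as CPM per kilobase of the longest transcript in the control libraries. PTTG1 was highest at 593 ± 33.1 CPM per kilobase (SD, n = 3), apart from CDK1 at 247 ± 20.6 and TOP2A at 228 ± 1.61, which overlapped each other. CENPE was lowest at 15.6 ± 2.35, and BUB1B and CDC25C, next above it at 18.0 ± 2.28 and 18.3 ± 0.703, overlapped. Of the 31 neighbouring pairs in this order, 21 had overlapping control libraries. The order rests on the transcript chosen: by the median transcript length of each gene, 19 of the 32 moved by 5 ranks or more, TOP2A came first and PTTG1 was number 2.

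Other genes of mitosis, in 8 lists, were also more often lower than higher. Of 126 genes 123 were tested, and 28 fell (22.8%), 4 rose (3.25%) and the rest did not pass, against 9.26% and 9.81% of all tested genes. The median log2 fold change of the 123 was -0.10. DESeq2 called 18 lower and 2 higher, against 5.03% and 5.72% of all. Condensin, which folds mitotic chromosomes, fell in 5 of 8 genes (SMC2, SMC4, NCAPD2, NCAPD3 and NCAPG2) and in 3 of 8 by DESeq2. SMC4 fell from 752 ± 26.6 to 594 ± 57.1 CPM (SD, n = 3 each; log2 -0.34, edgeR adjusted p = 3.24e-07) and SMC2 from 244 ± 11.0 to 192.5 ± 13.0 CPM (log2 -0.35). Cohesin, the ring that holds sister chromatids together, fell in 4 of 9 genes, SMC3 (log2 -0.40), STAG2 (log2 -0.36), RAD21 and PDS5B. SMC2, SMC4, SMC3 and STAG2 passed in each of the 17 alternatives.

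In the rest of the inner centromere and kinetochore 4 of 28 tested genes fell (HJURP, CENPC1 and MLF1IP among them) and 0 rose, and DESeq2 called 2 lower and 0 higher. The 4 were 14.3% of the list. That is near the 12.9% that fell among genes of at least 39.2 CPM in the controls, and 9.26% of all tested genes fell. At an unadjusted p under 0.05, edgeR had 6 lower and 0 higher. HJURP, which loads CENPA onto centromeres, fell by 0.25 on the log2 scale. Of 9 further checkpoint genes 1 fell (11.1%, also near those shares), CCDC99 (log2 -0.28), which recruits dynein to kinetochores and is now called SPDL1. In the spindle, centrosome and cytokinesis list 6 of 25 fell (24.0%), among them the chromatin protein HMGB2 and the lamin LMNB1 (log2 -0.45 and -0.24), and DESeq2 called 4. HJURP, CCDC99, HMGB2 and LMNB1 each passed in all 17 alternatives.

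Kinases and phosphatases of mitotic entry went both ways, with 5 of 15 lower (CDC25B, WEE1, GTSE1, CKS1B and BORA) and 3 higher (CDC25A, ARPP19 and CDKN3). The shares of all tested genes that fell and rose were 9.26% and 9.81%. DESeq2 called 4 of the 15 lower and 2 higher, against 5.03% and 5.72% of all tested genes. The 3 CDC25 phosphatases, which remove the inhibitory phosphates from CDKs, went in both directions. CDC25A, which also acts at the start of S phase, rose from 44.8 ± 4.44 to 61.1 ± 2.05 CPM (log2 0.44, edgeR adjusted p = 0.000422), and CDC25B fell from 214 ± 15.1 to 140.2 ± 3.63 CPM (SD, n = 3 each; log2 -0.61, edgeR adjusted p = 9.29e-13), beside the smaller fall of CDC25C given above. CDC25A and CDC25B passed in all 17 alternatives.

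Subunits and regulators of APC/C had 1 of 17 lower and 1 higher, with a median log2 fold change of 0.00332. Each was 5.88% of the list, under the 9.26% and 9.81% of all tested genes. DESeq2 called 0 in either direction, with 1 lower and 1 higher at an unadjusted p under 0.05. The genes edgeR called were ANAPC4 (log2 -0.32) and ANAPC13 (log2 0.26), which passed in 7 and 13 of the 17 alternatives. ANAPC4 failed to pass when any library but control library 1 was left out alone, as did ANAPC13 without control library 3 or LYCAT shRNA library 1 or 3 (edgeR adjusted p = 0.0541 to 0.241 over both). Of 12 regulators of the DREAM and MuvB complexes, which repress and activate late cell cycle genes, 2 fell (16.7%), RBL2 (log2 -0.41) and LIN9 (log2 -0.31), and DESeq2 called 0 (edgeR had 3 lower at an unadjusted p under 0.05, DESeq2 2). They passed in 13 and 6 of the 17 alternatives. RBL2 did not pass without control library 3 or LYCAT shRNA library 1 or 3, nor LIN9 when any library but LYCAT shRNA library 3 was left out alone (edgeR adjusted p = 0.0639 to 0.163 over both).

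Genes of DNA replication and S phase, the stage before G2, gave other counts. Of 42 tested genes 0 fell and 5 rose (GINS1, GINS2, RRM2, FEN1 and CCNE1) in edgeR, with 4 lower and 7 higher at an unadjusted p under 0.05, and the median log2 fold change was -0.03. The 5 were 11.9% of the list, near the 9.81% of all tested genes that rose, while 9.26% of all fell. DESeq2 called 0 lower and 4 higher, against 5.03% and 5.72% of all tested genes. CCNE1, cyclin E1 of the G1 to S transition, rose from 9.99 ± 0.756 to 16.8 ± 1.79 CPM (SD, n = 3 each; log2 0.76), and without control libraries 1 and 2 together neither it nor FEN1 passed (edgeR adjusted p = 0.0747 and 0.172). Genes named in brackets for these lists beyond the naming rule were chosen after their values were seen. The difference between the S phase genes and the mitosis genes was not tested.

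**Figure D4:**
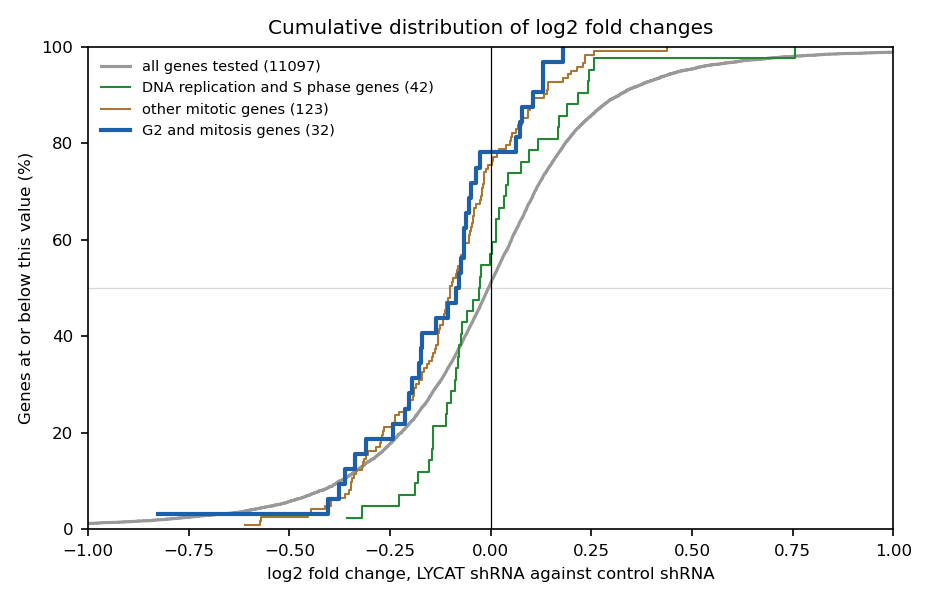
Cumulative percentage of genes at or below each log2 fold change, from -1 to 1, for the 32 G2 and mitosis genes, 123 other mitotic genes, 42 DNA replication and S phase genes and all 11097 tested genes. The curves of both mitotic lists cross 50% at -0.08 and -0.10, left of the curves for S phase genes (-0.03) and all genes (-0.01).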

How the data were processed

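The authors deposited raw counts per gene symbol for 6 libraries in 1 table. The submitters' processing notes name featureCounts 1.5.1, bcl2fastq 2.17, Bowtie2 and BWA 0.7.15, and the builds hg19 and mm10. Their roles and the strand setting are not given in the sources used here. Columns of the LYCAT group are headed "cycat" with a replicate number and were matched on that. From the deposited counts, filterByExpr left 11097 genes, which were scaled with TMM and tested with edgeR 4.0.16 (R 4.3.3; glmQLFit, robust=TRUE, group as the only term) and Benjamini-Hochberg adjustment. DESeq2 1.42.0 and limma-voom (limma 3.58.1) were alternatives, with others of scaling, filter, block, GC content and left-out libraries. CPM uses TMM-scaled sizes unless stated. SE is the log2 fold change divided by the square root of F, and intervals are 1.96 SE either way.

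The members, lists and rules were chosen with earlier results of these data known. Each changed member is given by library, as are, in each role, the most abundant of the others and those with the largest change in either direction. From each other list the rule takes, per direction, the gene that passed with the lowest adjusted p, plus 1 further gene at most. On simulated counts of 10993 genes, 200 of them changed, with the same 3 against 3 libraries, edgeR recovered 14.9% of 1.2-fold, 64.2% of 1.5-fold and 83.3% of 2-fold changes, with 8.47% false calls. Promoters are RefSeq's. Lengths and GC content come from GENCODE v29 and matched 90.2% of tested genes. Single values of 1 gene of the other mitotic lists are not reported here.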

Additional observations from a re-analysis of the deposited data

How the results depend on the processing

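Over the alternatives, the count of the 32 genes that fell stayed within 1.5 times the main count except when single libraries were left out, where it ranged from 7 to 13. The count that rose was 1 with library totals without scaling, DESeq2, limma-voom, robust=FALSE, GC and length offsets, these offsets with a replicate block, and without control libraries 1 and 2, and 0 to 3 when single libraries were left out. The median log2 fold change was -0.149 to -0.0585 with single libraries left out and -0.156 without control libraries 1 and 2. That last analysis was chosen after seeing the data and has control library 3 as its only control. Of the other mitotic genes, DESeq2 called 18 lower and 2 higher, 2 were higher without control libraries 1 and 2, and 2 to 4 were higher with single libraries left out. By median transcript length, 2 of the 5 highest genes per kilobase were among the 5 highest. The cause was not tested for any of these.

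The signs of 6 genes that did not pass turned. MKI67 was at 0.00704 with GC and length offsets and 0.00929 with the block added, DLGAP5 at 0.00262 with the offsets, and ECT2 at 0.0173 without control libraries 1 and 2. With single libraries left out, the log2 fold change ranged from -0.0757 to 0.0253 for CCNB2, -0.170 to 0.0176 for CENPA, -0.0721 to 0.0181 for BIRC5, -0.113 to 0.0237 for ECT2 and -0.108 to 0.0230 for DLGAP5.

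No pairing by replicate number was seen: deviations of same-numbered libraries correlated at 0.00509, -0.0645 and -0.0477. With so few libraries this does not settle how the cultures were made. With a replicate block, 13 of the 32 genes fell and 2 rose, against 9.03% and 9.41% of all tested genes.

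CDC25C, with the fewest counts (115 in its lowest library), had an SE of 0.116, and CENPF, at 1488 to 2918 counts, had the highest SE of the 32 genes, 0.132.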
